A study of Mus musculus with 2 samples.

Results

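Box H/ACA small nucleolar RNAs (snoRNAs) and small Cajal body RNAs (scaRNAs) were followed as short fragments in small RNA libraries of J1 mouse embryonic stem cells. The members were the mouse genes of type snoRNA or scaRNA in GENCODE M21 whose symbols begin with Snora or Scarna. There were 51 such gene entries at 49 loci, because Snora16a and Snora43 are each entered as 2 overlapping genes. A tag, meaning a distinct read sequence, was given to a member when it matched its RNA exactly in the sense direction and matched no miRNA hairpin. In the DMSO library 2995 of 18862866 reads of 18 to 31 nt were assigned in this way, over 452 of 905950 tags. In the SC1 library it was 152 of 1054495 reads of 15 to 17 nt, over 46 of 66539 tags.

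J1 is an established embryonic stem cell line of strain 129S4/SvJae. The cells were grown with 1000 U/mL LIF and sampled 6 h after addition of DMSO or of 1 µM SC1, a small molecule that supports self-renewal of these cells. With a single library for DMSO and for SC1, replicate error is unknown and no difference between conditions can be tested. Tags were 18 to 44 nt long in the DMSO list, against 3 to 17 nt under SC1. No length is shared, and the values of the 2 libraries are therefore given side by side without comparison. Intervals are exact at the 95% level (Clopper-Pearson for shares, Poisson for counts). They cover counting error only, since several reads can stem from 1 molecule when no molecular identifier is used.

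H/ACA RNAs guide the isomerisation of uridine to pseudouridine in ribosomal RNA, and scaRNAs do the same for spliceosomal snRNAs in Cajal bodies. An H/ACA RNA folds into a pair of hairpins joined by a single-stranded hinge that carries the H box (ANANNA), and a short tail after the second hairpin carries the ACA box, just before the 3′ end. The mature RNA is trimmed from a spliced host intron and held by dyskerin, Nop10, Nhp2 and Gar1. Fragments of such RNAs are known in small RNA libraries, and a few, such as those of human ACA45, are known to be made by Dicer and bound by Argonaute proteins. Some Scarna genes are of the other family, box C/D, which guides ribose methylation; Scarna2, Scarna9 and Scarna17 belong to it, and Scarna6 and Scarna10 combine both kinds.

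Most fragments came from 3 places of the RNA, namely its 5′ end, the hinge and the 3′ end. The sequences that follow are the leading tag of the members on which the results turn, written 5′ to 3′ in lower case with DNA letters. The whole RNA of Snora57, the member with most reads, is chr19:8888538-8888685 on the minus strand of GRCm38, where no host gene is annotated. Capitals mark its leading hinge tag at positions 50 to 69 and its leading 3′ tag at positions 129 to 148.
Snora57 RNA: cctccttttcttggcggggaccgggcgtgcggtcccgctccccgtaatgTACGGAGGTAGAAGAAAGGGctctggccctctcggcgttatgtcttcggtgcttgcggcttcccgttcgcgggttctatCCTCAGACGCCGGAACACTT

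In the tags that cover the hinge, capitals mark the H box nearest the middle of the RNA.
Snora57 hinge tag: tacggaggtAGAAGAaaggg
Snora81 hinge tag: AGAAGAaaagtaactgcactggatt

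In the tags from the 3′ end, or near it for Snora41, capitals mark an ACA. The ACA is followed by 3 more bases in all of them except Snora41, where 4 follow. The Snora41 tag stops short of the annotated 3′ end and counts as elsewhere by the rule used for positions.
Snora16a 3 prime tag: tgcaacattgtggaaaatgACAgct
Snora61 3 prime tag: cagcaggccagactcagACAtgc
Snora24 3 prime tag: agattctgacttgagcaagtgACAttc
Snora41 3 prime tag: ggaggattatgtgtgACAgaca
Snora70 3 prime tag: tcaagggaccttggagACAatt
Snora75 3 prime tag: atttggctgttgtgtgagACAtta

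In the tags from the 5′ end, capitals mark bases 2 to 8 of the tag, the position of the seed if it were a miRNA. Scarna3a and Scarna3b share these 7 bases.
Snora44 5 prime tag: aGGCATGTttccaagggc
Snora7a 5 prime tag: gACCTCTTgggatcgcgtctgga
Scarna3b 5 prime tag: tGGAAGCTgcaaaaccaacca
Scarna3a 5 prime tag: tGGAAGCTgcggagtcaacca

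H/ACA fragments were a small class. They made up 0.0159% of the DMSO reads of 18 to 31 nt (95% interval 0.0153 to 0.0165%) and 0.0144% of the SC1 reads of 15 to 17 nt (0.0122 to 0.0169%). Box C/D snoRNAs, the 98 Snord genes measured the same way, held 0.0907% of the DMSO reads and 0.302% of the SC1 reads, the latter mostly from the single gene Snord83b (78.4%). No tag matched a member when read backwards, and 1 DMSO read matched one in antisense. By kind, 92.0% of the DMSO reads of the members came from Snora genes, 3.41% from H/ACA scaRNAs, 3.21% from the mixed scaRNAs and 1.44% from the box C/D scaRNAs.

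Reads were found for 44 of the 49 loci in the DMSO list, and 25 loci had 10 reads or more. The SC1 list held reads for 20 loci, each also found with DMSO, and 4 of them had 10 reads or more. The loci at 0 in both lists were Snora15, Snora19, Snora28, Snora34 and Snora35; taking 3 reads as the limit that a count of 0 allows, their share could be up to 1.59e-05% of the DMSO reads. Snora34 and Snora19 had reads, 9 and 2, that were set aside because they also match a miRNA hairpin. Scarna15 (the mouse counterpart of ACA45) and Snora84 were looked for by name and were not among the 51 entries.

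The reads were concentrated in few members. Snora57, which guides pseudouridylation of ribosomal RNA, gave 1010 DMSO reads (949 to 1074), or 33.7% of all. Snora16a followed with 415 (376 to 457), Snora44 with 231 (202 to 263), Snora7a with 162 (138 to 189), Snora81 with 154 (131 to 180) and Snora61 with 127 (106 to 151). Each of the first 3 intervals is separate from the others, whereas those of Snora7a, Snora81 and Snora61 overlap. The 3 leading members together held 55.3% of the reads and the 10 leading members 82.5%. Corrected for the length of the RNA, the order of the first 3 was kept, at 682, 303 and 179 reads per 100 nt. Snora16a, Snora44 and Snora61 lie next to each other on chromosome 4 and overlap annotated exons of Snhg12, a non-coding snoRNA host gene. Snora57 reads are not those of 1 locus with certainty, since 99.7% of them also match an annotated copy, Gm26132.

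Below these 6, Snora24 and Snora41 had 98 reads each, Snora70 89, Snora75 86, Scarna6 65 and Scarna3b 62. Their neighbours in this order do not differ beyond counting error. Snora24 lies in Snhg8, Snora70 in Rpl10, Snora75 in Ncl, which encodes nucleolin, and Snora41 in an intron of Eef1b2. Of all 49 loci, 23 overlap an annotated exon of another gene, 21 lie in an intron and 5 have no annotated host. Of the DMSO reads of the members, 46.1% also match an exon of a long transcript, mostly the host's, so that a piece of the host and a piece of the snoRNA have the same sequence there.

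In the SC1 list Snora57 and Snora44 led with 48 (35.4 to 63.6) and 44 reads (32 to 59.1), and their intervals overlap. Snora81 had 15 reads and Snora73a, one of the U17 RNAs that act in cleavage of the ribosomal RNA precursor, had 11.5, where 0.5 stands for a read shared with Snora73b. Snora65 had 6, Snora74a 4, Snora73b 3.5, and Snora33 and Snora61 3 each. Snora16a, second with DMSO at 415 reads, had 1 SC1 read. The values are counts of different lengths from different libraries, and the difference between 415 and 1 was not tested. Almost all SC1 reads (147.5 of 152, 97.0%) lay within a longer DMSO tag of the same member, and 71.1% began at the first base of one. The same shares were not taken for box C/D genes or the whole list, so nothing particular to H/ACA RNAs follows from them.

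**Figure D1:**
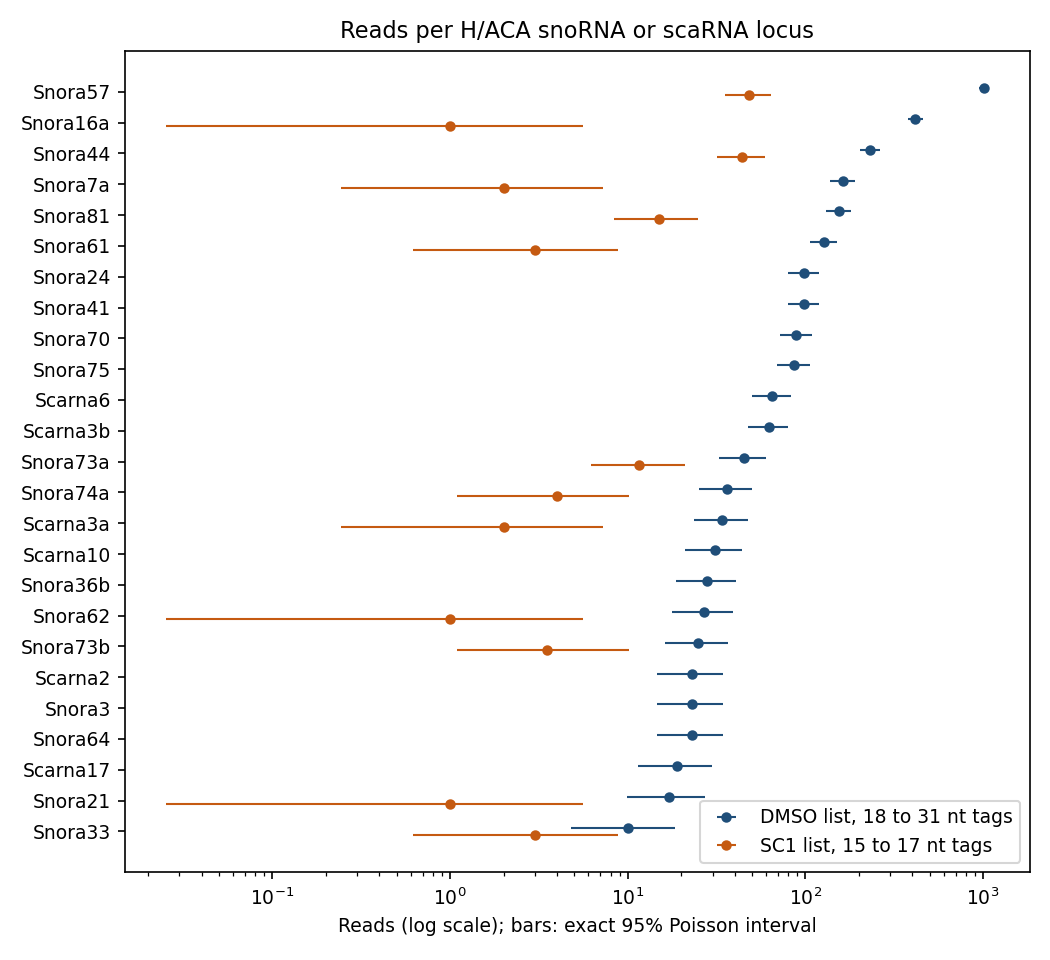
Reads (log axis) of the 25 loci with 10 or more DMSO reads, with exact 95% Poisson intervals; blue points are the DMSO list (18 to 31 nt tags) and orange points the SC1 list (15 to 17 nt tags), and a locus without an orange point had no SC1 read. Snora57 stands first with 1010 and 48 reads, and Snora44 is close to it in the SC1 list with 44 reads but not in the DMSO list with 231.

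The lengths of the fragments had a narrow peak. In the DMSO list, 754 of the 2995 reads (25.2%) were 20 nt long, followed by 21 nt with 12% and 25 nt with 11.5%. The peak at 20 nt is largely the single Snora57 tag of 512 reads, and the value at 25 nt includes the leading Snora16a tag of 189 reads. At 22 nt, the most frequent length of the whole list (15.6%), H/ACA fragments had 8.31%. The 20 to 24 nt range held 59.8% of H/ACA reads (58.0 to 61.5%), 48.4% of box C/D reads and 63.1% of the list. Box C/D fragments reached further into long tags: 27 to 31 nt made up 21.7% of them and 6.18% of H/ACA reads (5.34% at the lower bound). In the SC1 list, 9.87% of the H/ACA reads were 15 nt, 38.8% 16 nt and 51.3% 17 nt, the last being the longest tags it holds.

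**Figure D2:**
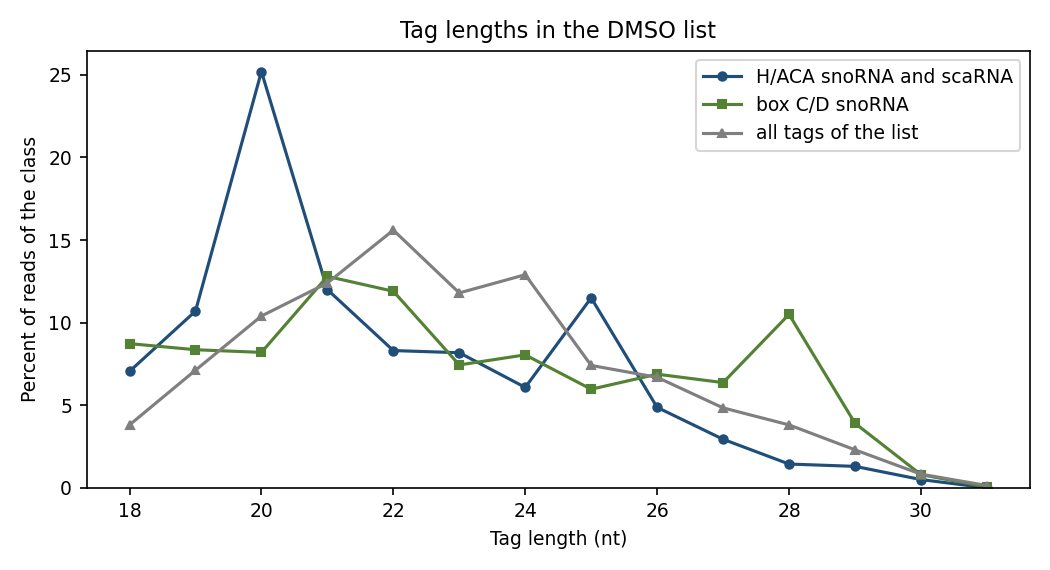
Percent of the DMSO reads of each class (y axis) by tag length in nt (x axis) for H/ACA members (blue circles), box C/D snoRNAs (green squares) and the whole list (grey triangles). H/ACA reads stand at 25.2% at 20 nt, and the box C/D line has a second rise at 28 nt that the H/ACA line lacks.

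The reads were then described by their position along the RNA. Each read was placed at the 5′ end (start within 2 nt of the annotated one), at the 3′ end (end within 2 nt), at the hinge (all bases of the H box covered) or elsewhere. The H box was the motif nearest the middle of the RNA. In some members, such as Snora36b, Snora65 and Snora78, that motif lies inside a predicted hairpin and not at the hinge. Of the DMSO reads 21% lay at the 5′ end, 39.3% at the hinge, 31.4% at the 3′ end and 8.31% elsewhere. Without Snora57, which gave 916 of the 1178 hinge reads, the hinge held 13.2%, the 5′ end 31.7% and the 3′ end 42.6%, and 12.5% lay elsewhere. Divided at the midpoint of the RNA, 45.0% of the reads lay on its 3′ side, and 63.1% did without Snora57. Of the box C/D reads 54.6% began at the 5′ end, 8.82% ended at the 3′ end and 21.9% lay on the 3′ side. With genes of 10 or more reads counted once each, 26.1% of the reads of an H/ACA locus ended at the 3′ end against 13.8% for a box C/D gene (25 and 60 genes), and 33.0% against 41.5% began at the 5′ end. The 3′ side then held 50.9% and 40.8%, and H/ACA loci themselves had more reads at the 5′ than at the 3′ end. These differences are descriptions of 1 library.

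Reads were also placed within the predicted folds. A read was placed on an arm by whether more of its bases pair downstream (5′ arm) or upstream (3′ arm), and on a side of the RNA by its midpoint. The 3′ arm beyond the midpoint held 36.6% of the DMSO reads and the 5′ arm there 8.25%. Before the midpoint the 3′ arm held 28.3%, mainly the Snora57 hinge reads, and the 5′ arm 22.5%. The leading Snora57 hinge tag spans the foot of the first hairpin and a strand of the next stem. Its place on the 3′ arm is decided by a narrow margin among its 9 paired bases. The SC1 reads had 37.5% on the 3′ arm beyond the midpoint and 37.5% on the 5′ arm before it, led by Snora57 and Snora44 respectively. In all, 3′ arms held 64.9% of the DMSO reads and 5′ arms 30.7%, but 53.4% and 46.2% without Snora57. In the SC1 list 3′ arms held 52.0% and 5′ arms 48.0%, and 29.8% and 70.2% without Snora57, which turns the order. By place, 35.5% of the SC1 reads began at the 5′ end, 23.0% covered the hinge, 23.7% ended at the 3′ end and 17.8% lay elsewhere. Without Snora57, which gave 30 of the 36 reads at the 3′ end, these were 51.9%, 16.3%, 5.77% and 26.0%.

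**Figure D3:**
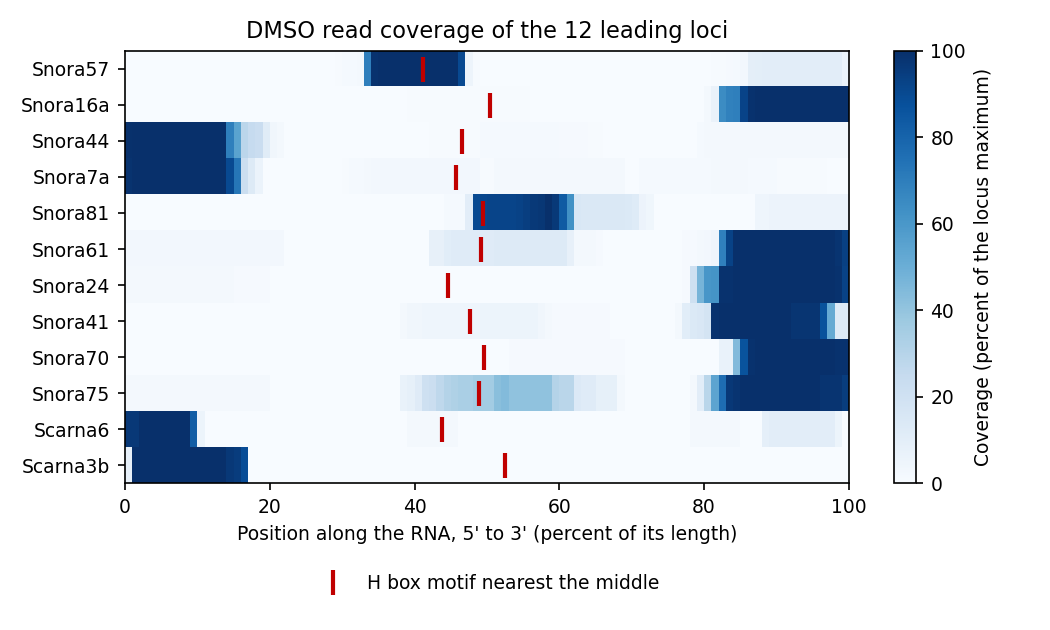
Coverage of the 12 members with most DMSO reads, each row an RNA drawn from its 5′ end (0%) to its 3′ end (100%), with colour as a percent of the row's highest coverage and a red bar at the H box motif nearest the middle. Snora44, Snora7a, Scarna6 and Scarna3b are covered at the 5′ end, Snora57 and Snora81 at the middle, and the other 6 rows at or, for Snora41, near the 3′ end.

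The Snora57 hinge fragment was the most abundant of all. The tag tacggaggtAGAAGAaaggg (chr19:8888617-8888636, minus strand) had 512 DMSO reads, and the shorter tags from positions 50 to 68, 51 to 69 and 52 to 69 had 73, 82 and 88. Of the 1010 Snora57 reads 69.4% ended at position 69 and 60.9% began at position 50, so the 3′ end was the sharper one. In the predicted fold, all 6 bases of the H box (positions 59 to 64) are unpaired, as part of a stretch of 8 unpaired bases from 58 to 65. The fragment thus spans the foot of the first hairpin, this unpaired stretch and the first strand of a short stem-loop that follows it in the fold. It ends before the large 3′ hairpin. A second set of 94 DMSO reads lay between position 120 and the 3′ end, with its leading tag of 25 reads shown in capitals at the end of the printed RNA. In the SC1 list, 18 reads covered the hinge (52 to 69) and 30 the 3′ end (131 to 148), led by 16 reads of a 16 nt tag whose ACA is again in capitals.
Snora57 SC1 tag: agacgccggaACActt

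**Figure D4:**
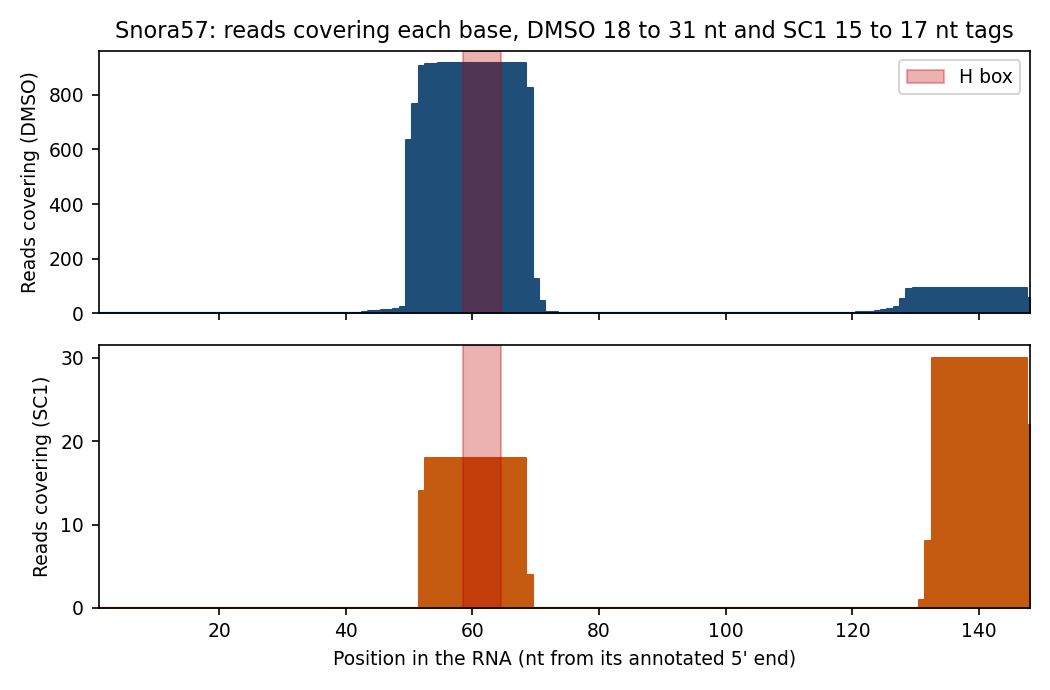
Reads covering each base of the 148 nt Snora57 RNA (x axis, nt from the 5′ end) in the DMSO list (top, 18 to 31 nt tags) and the SC1 list (bottom, 15 to 17 nt tags), with the H box shaded. In the DMSO list 916 reads cover the hinge and 94 the 3′ end, and in the SC1 list 18 and 30.

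Snora81, which overlaps an annotated exon of Eif4a2, gave a second fragment at the middle of the RNA. Of its 154 DMSO reads 66.2% began at position 86, the first base of the motif used as H box, and the most frequent end was position 110. Only 1 of the 6 motif bases is unpaired in the predicted fold, so the place of the hinge is less certain here than in Snora57. All 15 SC1 reads of Snora81 lay between positions 111 and 128, beyond the end of the leading DMSO tag. The 30 DMSO reads that lay neither at the hinge nor at an end were spread between positions 87 and 130. Most Snora81 reads (95.5%) also match an annotated copy of this RNA. The U17 RNAs Snora73a and Snora73b had 60.0% of their DMSO reads over the hinge each, 27 of 45 and 15 of 25, at positions 94 to 121. In the SC1 list 11 of 11.5 and 3 of 3.5 reads lay there.

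At the 3′ end, Snora16a was the clearest case. Of its 415 DMSO reads 412 (99.3%) ended at the last annotated base, 3 nt after the ACA box, while their starts were spread, with 45.5% at position 113 (chr4:132309576-132309600 for the leading 25 nt tag, plus strand). Snora70 ended there in 97.8% of its reads, Snora24 in 90.8%, Snora61 in 81.1% and Snora75 in 65.1%. Their starts were less fixed, with 37.1%, 25.5%, 55.1% and 17.4% of reads at the most frequent position. Snora70 and Snora75 guide pseudouridylation of ribosomal RNA, as do most Snora RNAs, and all Snora70 reads also match annotated copies. Snora41 differed from these: 77.6% of its reads began at position 108, and its leading tags of 33 and 30 reads ended at positions 129 and 128, before the annotated end at 132. In all 80.6% of its reads counted as elsewhere and 15.3% as 3′ end. The 21 nt tag ends 3 nt after an ACA, but this ACA was picked by searching back from the end of the leading tag. By the rule used for the other members the ACA begins at position 129. Over all members with an ACA box within 10 nt of the annotated end, 33.4% of 2490 DMSO reads and 30.1% of 93 SC1 reads ended exactly 3 nt after it. The totals include members whose ACA has fewer than 3 bases after it, such as Snora41 with 98 DMSO reads, which cannot meet this. They also include the box C/D scaRNA Scarna17, which has an ACA near its end.

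At the 5′ end, Snora44 and Snora7a had fixed starts, and Scarna3b and Scarna6 had sharper ends than starts. Snora44 began at its first base in 96.1% of 231 DMSO reads (chr4:132309941-132309958 for the leading tag, plus strand), with ends spread from 18 nt upward. Its 44 SC1 reads were 2 tags of 22 reads each, both from the first base, of 16 and 17 nt. They continue the DMSO series of tags downward by 1 nt at a time from the 18 nt tag of 68 reads. The longer SC1 tag is shown with the same 7 capitals as above, and the 16 nt one also matches a transcript of Olfr71.
Snora44 SC1 tag: aGGCATGTttccaaggg

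Snora7a, which overlaps an annotated exon of Rpl32, began at its first base in 92.6% of 162 DMSO reads and had 2 SC1 reads. All of these reads also match an annotated transcript of the protein-coding gene Rpl32, and none remained in either list when tags of other RNA classes were left out. The H/ACA scaRNA Scarna3b began within 2 nt of its 5′ end in all 62 reads, with 48.4% at the most frequent start (position 2), and 88.7% ended at position 23. Its relative Scarna3a, named here after its values were seen, had 34 reads, 76.5% of which ended at the same position 23. A further 17 reads of Scarna3b alone and 13 of Scarna3a alone lay at positions 77 to 140. They match Mir1843a or Mir1843b and were set aside, so the 5′ placement holds only for reads that the hairpin rule left. The mixed scaRNA Scarna6 had 84.6% of 65 reads at the 5′ end, with 52.3% starting at position 2 and 64.6% ending at position 26. Among the 25 loci with 10 or more reads, the most frequent end held more reads than the most frequent start in 11, fewer in 12 and as many in 2.

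The 9 scaRNAs were low throughout, and 1 of them, Scarna3a, had SC1 reads (2). Besides Scarna6, Scarna3b and Scarna3a, the mixed scaRNA Scarna10 had 31 DMSO reads, of which 51.6% lay at its 5′ end. The box C/D scaRNA Scarna2 had 23 reads, 65.2% of them elsewhere than at an end or the H box motif, and Scarna17 had 19, 68.4% at the 5′ end. Scarna8 had 4 reads, Scarna13 2 and Scarna9 1, too few to place. Among low Snora members, named here as examples, Snora62 had 85.2% of 27 reads at the 5′ end, Snora64 69.6% of 23 and Snora3 60.9% of 23, whereas Snora21 had 58.8% of 17 at the 3′ end. For Snora3 another 24 DMSO reads match a miRNA hairpin and were set aside, the leading tag with 11 reads from position 1. Hinge reads were also found beside the main set of some members: 20 of 86 reads of Snora75, 13 of 127 of Snora61 and 6 of 23 of Snora3. Snora65, with 5 DMSO and 6 SC1 reads, was the member of the SC1 leaders with fewest DMSO reads, and 60% and 100% of them also match copies of it.

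miRNA-like products were defined by size and start alone, as 10 or more DMSO reads of 20 to 24 nt of which at least 50% share a start. This says nothing on Dicer or Argonaute. Of 23 members with enough reads 15 met it, and 3 of them had 100 reads or more. The 15 include the box C/D scaRNA Scarna2 and the mixed scaRNA Scarna6. Leaving out box C/D and mixed scaRNAs, chosen after seeing the data, gave 13. The rule was not applied to box C/D genes or other classes, so whether 15 of 23 is particular to H/ACA RNAs was not tested. Snora57 had 676 reads of this size with 80.2% from position 50, Snora7a, whose reads all match Rpl32 too, 138 with 94.2% from position 1, and Snora61 110 with 63.6% from position 108. Snora16a, with 167 reads of this size, did not meet it, because its most frequent start held 37.1%. Of the 15 products 7 began at the 5′ end, 2 ended at the 3′ end, 3 covered the motif used as H box and 3 lay elsewhere. For Snora36b, counted among those at the motif, it lies inside the second predicted hairpin and not at the hinge.

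A miRNA hairpin usually leaves reads of both arms. For each product, the reads left after the hairpin rule were counted on the stretch that pairs with it in the predicted fold. Snora81 and Snora61 had counts of 10 or more, 23 and 14. For Snora81 the count overstates the reads that pair with the product. In the fold this product pairs with stretches near both ends of the RNA. Of its remaining DMSO reads only 8, at positions 155 to 178, lay near either of them. A further 11 DMSO reads of Snora81, at positions 1 to 28, also match a miRNA hairpin and had been set aside by the hairpin rule. For Snora36b the count of 0 is set by that rule, as described with it. The 3 largest products were paired over 9 of 20 bases (Snora57), 15 of 23 (Snora7a) and 15 of 23 (Snora61). A first base T, frequent among mature miRNAs, was present in 5 of the 15 products. Of the 20 to 24 nt reads 44.4% began with T, against 22.3% in the whole list, but without Snora57 it was 19.4%.

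Snora36b holds an annotated miRNA, Mir664, and had most of the reads that the hairpin rule removes. Its 28 DMSO reads were almost all tags that begin at position 68, 1 base before miR-664-5p (RefSeq), whereas 273 reads within the annotated Mir664 hairpin were set aside, 257 of its 5′ arm and 16 of its 3′ arm. The leading remaining tag had 11 reads, and capitals mark the bases of miR-664-5p in it. In the miRNA, capitals mark the seed (bases 2 to 8).
Snora36b tag: gCTGGCTGGGGAAAATGACTGG
miR-664-5p: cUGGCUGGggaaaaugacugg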

How the data were processed

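The authors deposited counts of reads per distinct tag, 1 list per library, as whole numbers that sum to a different total in each list. The genome build is mm9 per the submitters' processing notes; for the adapter, trimming and length filters, the sources used here give no setting. Lists held 18870345 (DMSO) and 1275599 (SC1) reads. Tags of 18 to 31 nt (DMSO) and 15 to 17 nt (SC1) were compared with GENCODE M21 transcripts, allowing no mismatch and only the sense direction. No mm9 genome was used, and positions are those of GRCm38 in that annotation. Tags matching several members were divided equally, and copies under other symbols were noted. RNAs were folded with RNAfold 2.7.2, and other steps used Python 3.11.15 with scipy 1.17.1. A check on simulated reads used only error-free pieces of the members' own sequences. It left out miRNA hairpins, copies under other symbols and other transcripts, so it could not test the assignment against them. No test across members was possible with 1 library per condition.

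Named members were the 12 with most DMSO reads, the 8 with most SC1 reads, those with a product of 100 or more reads, scaRNAs of 100 or more reads, Scarna15, Snora36b, Snora34, Snora81 and Snora84, and the leading member of each arm class, 19 in all; others are named as examples. Members, lists and rules were chosen with earlier results of these data known. Alternatives changed shared tags, other RNA classes, minimum reads, distinct tags, the leading member, product limits, the position split and the denominator.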

Additional observations from a re-analysis of the deposited data

Results flagged for a closer look

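Some reads lay outside the counts of the report. In the DMSO list 364 reads matched both a member and a miRNA hairpin and were left out by the rule, 273 of them from Snora36b and Mir664, 24 from Snora3 and 17 from Scarna3b and Mir1843a. A further 51 DMSO reads, and 1 SC1 read, matched a member only after 1 to 3 added A or T bases at the 3′ end were taken off. The most frequent of these was the 21 nt Snora41 fragment with 1 added T, at 8 reads, and 9 of the 51 reads followed the annotated 3′ end of the RNA. Whether such bases were added to the RNA, belong to the genome or are sequencing errors was not tested.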

How the results depend on the processing

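The cause of these changes was not tested beyond each alternative's construction. The DMSO share of 0.0159% was 0.00886% without tags shared between snoRNA genes, 0.0150% without tags of other RNA classes, 0.0145% at a minimum of 2 reads per tag and 0.0121% at 10, 0.0499% over distinct tags and 0.0105% without Snora57. The SC1 share of 0.0144% was, in the same order, 0.00673%, 0.0121%, 0.0119%, 0.00702%, 0.0691% and 0.00986%, and 0.0119% of all reads of the list. The 20 to 24 nt share of 59.8% was 55.2% without shared tags, 61.8% with tags of at least 10 reads, 50.9% over distinct tags, 56.1% without Snora57 and 61.9% with members counted once each. The share beyond the midpoint, 45.0%, was 57.5% without shared tags, 47.3% without other classes and 40.8% with tags of at least 10 reads. It was 57.1% over distinct tags, 63.1% without Snora57, 50.9% with members once each and 71.6% when split at the hinge. The border of that split was the first base of the H box motif, position 59 in Snora57. It lies inside the leading Snora57 tag (50 to 69), which a narrow margin placed on the 3′ side. The 15 products became 3 at 100 reads, 8 when 70% had to share a start and 0.0 over distinct tags. This last value is almost fixed by the rule. A start can hold only a single distinct tag per length from 20 to 24 nt, while the limit of 10 was kept.

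Chosen after seeing the data, keeping tags that match miRNA hairpins gave a DMSO share of 0.0178%, 49.6% beyond the midpoint and a 20 to 24 nt share of 63.5%, and leaving out box C/D and mixed scaRNAs gave a DMSO share of 0.0151%. Of 261 other values 97 moved. The SC1 values rest on 152 reads. No paired analysis was possible because DMSO and SC1 are represented by 1 library each.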

Other observations

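Reads were also counted for other genes of the H/ACA machinery. Terc, the telomerase RNA, whose 3′ part is an H/ACA domain, had 61 DMSO reads over 40 tags and 18 SC1 reads over 3 tags. Among the mRNAs of the H/ACA proteins and their assembly factors, Nhp2 had 39 DMSO reads, Gar1 38, Naf1 16, Nop10 12 and Shq1 11, and none had more than 3 SC1 reads. Dkc1, which encodes dyskerin, had 448 DMSO reads over 134 tags and 39 SC1 reads, and tags that also match other transcripts were not left out of these counts.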
